A study of Arabidopsis thaliana with 10 samples.

Results

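Seedlings of Arabidopsis thaliana that carry the LFYasEMF1 transgene together with the ult1-3 allele (LFYasEMF1/ult1-3, called the double mutant here) were compared with seedlings that carry the ult1-3 allele alone. The comparison rests on 4 of the 10 arrays of the study, chosen by the genotype and age in the labels, 1 array for each of the 2 genotypes at 7 and at 15 days of age. The study measured transcripts of whole seedlings of 4 genotypes grown on sucrose-containing agar in short days, and its title asks whether ult1-3 restores what LFYasEMF1 alters. LFYasEMF1 drives antisense RNA of EMF1 from the promoter of LEAFY (LFY), a gene best known from young floral and leaf primordia, so the transgene need not act in every cell of a seedling. The ult1-3 allele is common to both genotypes of the comparison. The transgene alone (LFYasEMF1) and the wild type (WT, whose accession is not given in the sources used here) served only as points of reference.

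Polycomb group proteins keep genes silent through chromatin, and in seedlings EMF1 is one of the proteins through which this system holds the floral organ identity genes off. Trithorax group proteins oppose that silencing, and ULT1 (ULTRAPETALA1), a SAND-domain protein of this group, is best known for switching on AG, one of the floral genes. Most floral organ identity genes encode MADS-domain transcription factors that act in combinations to specify sepals, petals, stamens, carpels and ovules.

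The double mutant and ult1-3 of one age lay on the same slide, together with WT replicate 2 of that age, so that age and slide cannot be told apart but the 2 genotypes were always compared within a slide. Signals are given as the log2 of a spot's processed signal over the 75th percentile of its array, called the level here, so that 0 is the level of a spot at that percentile. Changes were fitted with limma to the 6 arrays of these 2 slides, with genotype and age as terms, and are given with their standard error (SE, 2 arrays against 2). Between 71.7% and 80.1% of the non-control spots were well above background on the 10 arrays, and no spot was saturated. The arrays are single and nothing says that they came from separate cultures, so p-values reflect the scatter among single arrays, part or all of which may be technical. The 18 photosynthesis genes were well above background on all 4 arrays, with median levels of 6.63 and 6.41 in the double mutant and 6.53 and 6.47 in ult1-3. All 14 genes of the root list were measured on the 4 arrays too (median change −0.07). In whole seedlings, fewer cells of a type and less RNA per cell cannot be told apart.

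The genes altered by the genotypes were examined first. ULT1 was at −6.45 and −5.81 in the double mutant at 7 and 15 days and at −2.33 and −2.76 in ult1-3, while WT replicate 2 on the same slides was at −0.20 and −0.16. Although both mutant genotypes carry the ult1-3 allele by their labels, the double mutant arrays lay below those of ult1-3 at both ages. ULT1 fell by 3.59 ± 0.31 on the log2 scale in the double mutant, or 12-fold (adjusted p = 0.0475 by limma), and its other probe gave −3.39. Of the 2 double mutant arrays, 1 had ULT1 well above background. The files do not give where the ULT1 probes lie with respect to the lesion of ult1-3. EMF1 was at −3.10 and −1.62 in the double mutant and at −2.55 and −1.73 in ult1-3, a change of −0.22 ± 0.30 (adjusted p = 0.917), and the genotypes overlapped. In LFYasEMF1 the same probe lay 1.21 above WT replicate 1, the mean of both ages. The files do not say which strand of EMF1 RNA the probe reads. LFY was not well above background on any of the 4 arrays, so no fold is given.

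With both ages fitted together, 23 genes rose and 45 fell relative to ult1-3 at an adjusted p under 0.05, which is 0.105% and 0.205% of the 21977 genes tested. All of them differed by at least 2.41 on the log2 scale. At an unadjusted p under 0.05 there were 1518 genes, and without an age term the count was 26. The count rests on single arrays of the fit, which has 2 residual degrees of freedom. No gene passed without WT replicate 2 at 7 or at 15 days, 7 passed without ult1-3 at 7 days and 4 without ult1-3 at 15 days, whereas 506 and 520 passed without the double mutant array at 7 or at 15 days, all 68 among them in both cases. In these fits the genotype with 1 array left is assumed to vary like the others. A description that needs no spread is the count of genes that differed by at least 2-fold in the same direction at both ages. There were 298 such genes higher (1.36% of those tested) and 247 lower (1.12%) in the double mutant.

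The floral organ identity genes were higher in the double mutant as a group. Of 19 genes on the list 18 passed the filter on dim probes, SUP being the exception, and the filter favours genes that are on in at least 1 array. LFY and AGL79 were at background on all 4 arrays of the 2 genotypes, and the other 16 had a positive fitted change. As measured, 11 were at least 2-fold higher at both ages, against 1.36% of all genes, and none was 2-fold lower at both ages. With dim signals raised to the lowest signal well above background on their array, here called the floor, 9 were at least 2-fold higher at both ages, against 0.842% of all genes, CAL and STK no longer being counted. Their median change was 1.99 on the log2 scale, or 1.66 with dim genes at their bound, and that of all genes tested was 0.01. None of the 18 passed the adjusted threshold (limma). An unadjusted p under 0.05 was met by 11 of them, against 1518 of the 21977 genes tested. With all 10 arrays in the fit 2 passed, and 3 with slide as a further term. Values per array and folds are therefore given below as measurements.

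**Figure D1:**
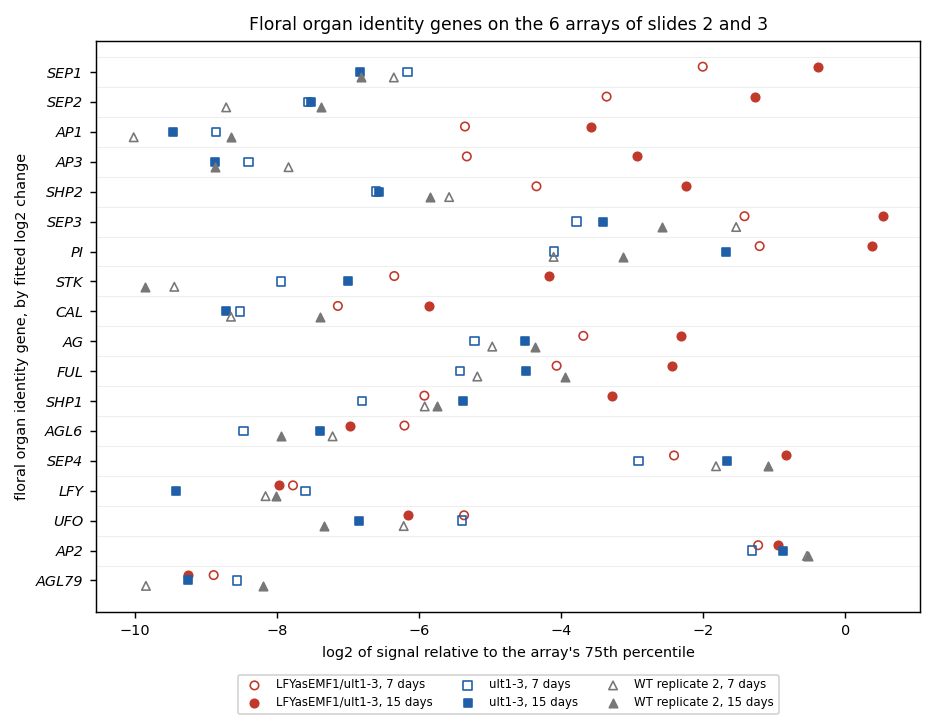
Level of each floral organ identity gene on the 6 arrays of slides 2 and 3 (horizontal axis, log2 of the signal over the array's 75th percentile), with genes ordered by fitted change. Circles are the double mutant, squares ult1-3 and triangles WT replicate 2, open at 7 days and filled at 15 days. For the upper 11 genes, SEP1 to FUL, and for AGL6, both double mutant arrays lie to the right of both ult1-3 arrays. Of all 21977 genes tested, 2582 show the same order.

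The SEPALLATA genes encode the MADS-domain partners that join the organ identity factors in their complexes. SEP1 was at −2.01 and −0.38 in the double mutant at 7 and 15 days and at −6.16 and −6.84 in ult1-3. SEP2 was at −3.36 and −1.27 against −7.56 and −7.52. For both genes every double mutant array was above every ult1-3 and WT replicate 2 array. SEP1 was higher by 5.31 ± 0.62, or 39.5-fold (adjusted p = 0.097 by limma), and 5.51 by its other probe. SEP2 was higher by 5.23 ± 0.52 (adjusted p = 0.0653), which is at least 24.8-fold because ult1-3 was not well above background on either array. SEP3, which joins factors of petals, stamens and carpels, was at −1.42 and 0.53 against −3.78 and −3.42, a change of 3.15 ± 0.72 (8.90-fold, adjusted p = 0.387). WT replicate 2 had SEP3 at −1.54 and −2.58, so that at 7 days the double mutant and WT lay close to each other and ult1-3 lay below both. SEP4 differed little, with a change of 0.67 ± 0.27 (adjusted p = 0.755), and the arrays of the genotypes overlapped.

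AP1, CAL and FUL belong to one clade of MADS-box genes that give meristems floral identity, and AP1 also specifies sepals. AP1 was at −5.35 and −3.57 in the double mutant and at −8.86 and −9.46 in ult1-3, where it was not well above background. The change of 4.69 ± 0.62 is at least 5.59-fold (adjusted p = 0.13 by limma), with both double mutant arrays above the others. CAL was higher by 2.11 ± 0.44, at least 1.36-fold, and was well above background on 1 double mutant array only. Its other probe, at background on all 4 arrays, gave 0.65. FUL, which also acts in fruit growth, was measured on all 4 arrays and stood at −4.06 and −2.44 against −5.42 and −4.50. Its change was 1.71 ± 0.25, or 3.27-fold (adjusted p = 0.167), and 2.08 by its other probe. The genotypes did not overlap, but the double mutant at 7 days lay below WT replicate 2 at 15 days (−3.95). AGL79, a further member of the clade, lay at background in both genotypes (−0.17 ± 0.62, no fold).

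AP3 and PI form the dimer that specifies petals and stamens. AP3 was at −5.33 and −2.94 in the double mutant and at background in ult1-3, at −8.40 and −8.87. It was higher by 4.50 ± 0.87, at least 7.03-fold (adjusted p = 0.291 by limma). PI was well above background on all 4 arrays, at −1.21 and 0.38 against −4.10 and −1.68, a change of 2.47 ± 0.39 or 5.55-fold (adjusted p = 0.192). Its double mutant arrays were above those of ult1-3 and WT replicate 2, with ult1-3 at 15 days next below the double mutant at 7 days.

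AG specifies stamens and carpels, and SHP1, SHP2 and STK are its closest relatives, which act in fruit and ovules. AG was at −3.69 and −2.31 in the double mutant and at −5.22 and −4.51 in ult1-3, a change of 1.86 ± 0.27 or 3.64-fold (adjusted p = 0.167 by limma). Its other probe gave 4.94, from −4.48 and −2.42 against −8.78 and −7.99, with ult1-3 not well above background. Both probes had the double mutant above ult1-3 at each age, and they disagree in size. SHP2 was at −4.35 and −2.25 against −6.60 and −6.56, a change of 3.29 ± 0.63 (9.76-fold, adjusted p = 0.285), and 3.5 by its other probe. SHP1 was higher by 1.49 ± 0.60 (2.81-fold, adjusted p = 0.751), and the double mutant at 7 days (−5.92) lay below ult1-3 at 15 days (−5.39). STK, known for ovule identity, was at −6.35 and −4.17 against −7.94 and −6.99 in ult1-3, at least 3.04-fold higher (2.21 ± 0.63, adjusted p = 0.542).

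The other members of the list differed less. AGL6, a relative of the SEPALLATA genes, was higher by 1.35 ± 0.52 and at least 1.28-fold. It was measured on 1 double mutant array. UFO, an F-box partner of LFY, had a change of 0.35 ± 0.24 (adjusted p = 0.841 by limma), and AP2, which is not a MADS-box gene and restricts AG, had one of 0.01 ± 0.22 (adjusted p = 0.998).

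The measured size of the difference was not the same at both ages, with 1 array per genotype at each. Age cannot be told apart from slide here. With dim signals at the floor, 13 of the 16 floral genes above background on at least 1 of the 4 arrays differed more at 15 than at 7 days. Their median was 1.37 at 7 days and 2.15 at 15 days. The medians of all genes tested, with signals as measured, were −0.01 and 0.04. How many of all genes differed more at 15 days was not counted. SEP1, well above background on all 4 arrays, differed by 4.16 at 7 and 6.46 at 15 days. A change of this kind with age enters the SE of the fit over both ages. SEP3 differed by 2.36 and 3.95, and AP3, at background in ult1-3, by at least 1.40 and 4.22 on the log2 scale. PI went the other way, with 2.89 and 2.05, as did AP2 and AGL6. No gene of the array passed the test of the difference between ages (0 of 22355, 0%, limma; 345 genes had an unadjusted p under 0.05). That test takes its spread from the 2 WT pairs alone, with 2 residual degrees of freedom, and the lone arrays are assumed to vary like WT. The arrays of each WT pair lie on different slides, so this spread includes differences between slides. The genotypes, in contrast, were compared within slides, so the lack of calls does not show that the ages were alike. Across all genes 763 were at least 2-fold higher and 1632 lower at 7 days, and 1124 were higher and 674 lower at 15 days, each from 1 array per genotype. The differences at both ages had a Pearson correlation of 0.35 across 21977 genes, which are not independent replicates.

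**Figure D2:**
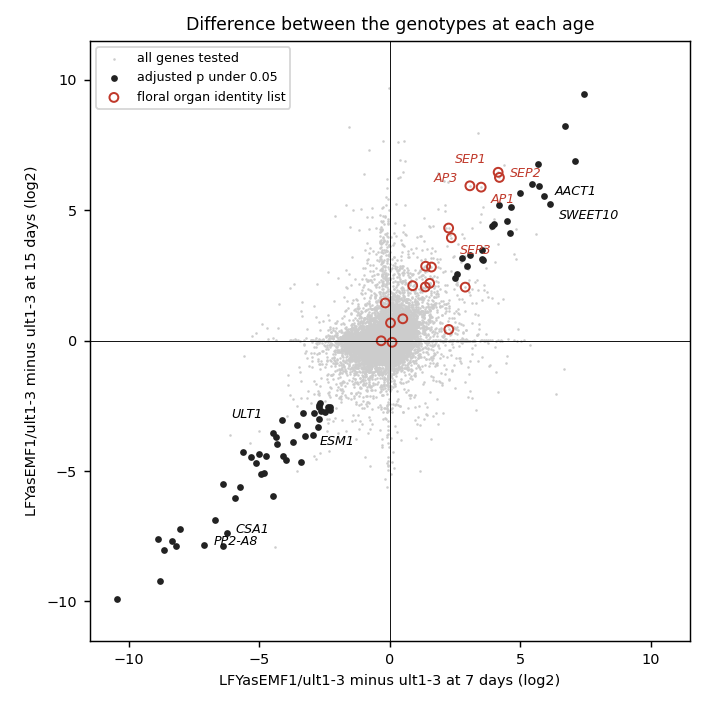
Difference between the double mutant and ult1-3 at 7 days (horizontal) and 15 days (vertical), both in log2, for every gene tested (grey), the 68 genes that passed the limma test (black) and the floral organ identity genes (red rings). Signals are as measured, also at background. A gene passes only where both ages agree, so the black points lie near the diagonal by construction, and SEP1 lies at 4.16 and 6.46.

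Only 18 of the 68 changed genes carry a symbol, and 4 of these rose. SWEET10, a sugar transporter gene, was at −1.76 and −1.94 in the double mutant and at −7.90 and −7.17 in ult1-3, where it was not well above background. It rose at least 34.2-fold (5.69 ± 0.38, adjusted p = 0.0276 by limma). AACT1, an acyltransferase gene, rose 52.5-fold, from −5.95 and −5.77 in ult1-3 to −0.05 and −0.24 (5.71 ± 0.46, adjusted p = 0.0409). Both genes were on the ult1-3 side in WT replicate 2, SWEET10 at −7.83 and −6.63 and AACT1 at −4.37 and −5.89. WT replicate 1, on slide 1, was far higher at 7 days for SWEET10 (−2.99, and −5.17 at 15 days) and at 15 days for AACT1 (−1.91, and −3.95 at 7 days), so that WT arrays of one age differed by much of the size of these changes. AGL98, a MADS-box gene outside the floral list, rose at least 3.79-fold (4.16 ± 0.31, adjusted p = 0.0398). CYP71A12, a cytochrome P450 of indolic defence compounds, rose 5.88-fold (2.56 ± 0.20, adjusted p = 0.0407), with ult1-3 well above background on 1 array.

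Among the decreases, several genes went from a clear signal to background. PP2-A8, of the phloem lectin family, was at −1.93 and −1.58 in ult1-3 and at −9.04 and −9.43 in the double mutant. It fell at least 37.4-fold (−7.48 ± 0.26, adjusted p = 0.00625 by limma), and its neighbour PP2-A6 at least 11.8-fold (−5.22 ± 0.42, adjusted p = 0.0407). CSA1 and DAR4, neighbouring genes for immune receptors of the TIR-NB-LRR class, fell at least 25.3-fold (CSA1) and 61.6-fold by the fitted change (DAR4). CSA1 was at −8.89 and −9.37 against −2.64 and −2.0, and DAR4 at −8.38 and −6.38 against −1.99 and −0.88, well above background on 1 double mutant array. The homeobox gene WOX2, known from the early embryo, fell at least 14.7-fold (−5.66 ± 0.19, adjusted p = 0.00625), and the cytochrome P450 gene CYP712A2 at least 5.10-fold. MBD3, of the methyl-CpG-binding domain family, and RGTA2, for a subunit of a Rab geranylgeranyl transferase, fell at least 2.11-fold and 1.87-fold.

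ESM1, which influences the products released when glucosinolates are broken down, fell while staying well above background on all arrays. It was at 3.62 and 4.88 in ult1-3 and at 0.37 and 1.22 in the double mutant, with WT replicate 2 at 3.39 and 4.83. The change was −3.46 ± 0.24, or 11-fold (adjusted p = 0.0294 by limma). The calls of these 14 named genes, ULT1 included, rest on single arrays. All 14 ended without WT replicate 2 at 7 or 15 days (adjusted p from 0.0933 to 0.261) and without ult1-3 at 15 days (0.0564 to 0.283). Without ult1-3 at 7 days 13 ended, PP2-A8 keeping its call (adjusted p = 0.0324), and all 14 passed without either double mutant array.

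The loci with the largest bounds had no symbol and were chosen here after their values were seen. AT4G07820 fell at least 399.7-fold, from 1.95 and 1.37 in ult1-3 to −8.52 and −8.54, AT5G45500 at least 169.6-fold and AT5G50665 at least 158-fold. AT4G04402 rose at least 120.3-fold, from −7.60 and −9.34 to −0.16 and 0.09. In all, 26 of the 45 decreases were well above background on both ult1-3 arrays and on neither double mutant array, a pattern met in 66 genes tested, and 13 of the 23 increases showed the reverse, a pattern met in 96 genes. WT replicate 2 of the same slide was set beside both genotypes for the changed genes only, without a count over all genes. It was closer to ult1-3 than to the double mutant at both ages for all 23 increases and for 44 of the 45 decreases. The exception was LCR80, for a small cysteine-rich protein, named after its values were seen, at −6.57 and −6.71 in ult1-3, −9.19 and −9.20 in WT and −8.85 and −9.26 in the double mutant. Probes of the same gene, well above background on all 4 arrays for the second value, disagreed for AT1G63860 (5.72 and −0.67) and TEX1 (−2.62 and −0.11). For AT1G24230 (7.00) the other probe was at background on all 4 arrays.

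The changed genes were unevenly placed in the genome. By locus name, 16 lay on chromosome 4 and 42 on chromosome 5, which is 0.479% and 0.822% of the genes tested there. On chromosomes 1, 2 and 3 there were 3, 1 and 6, or 0.0516%, 0.0295% and 0.139%. On chromosome 4, 15 of the 16 lay among the first 589 tested genes, up to AT4G09770, and the remaining one was ULT1. Another changed gene lay within 10 tested genes for 30 of the 68, and the next tested gene was changed for 12. How often tested genes in general lie this near to a changed gene was not counted. When changed genes no more than 50 tested genes apart were joined, 8 stretches held 3 or more of them, 31 in all, among 282 tested genes, which is 1.28% of the genes placed. The longest series ran from AT5G44220 to AT5G45500, with 10 changed among 120 tested genes, and it holds PP2-A8 and PP2-A6. When the genes of these stretches were left out, 13 genes passed, 6 higher and 7 lower. Whether differences between the lines other than the transgene bear on these genes was not tested.

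**Figure D3:**
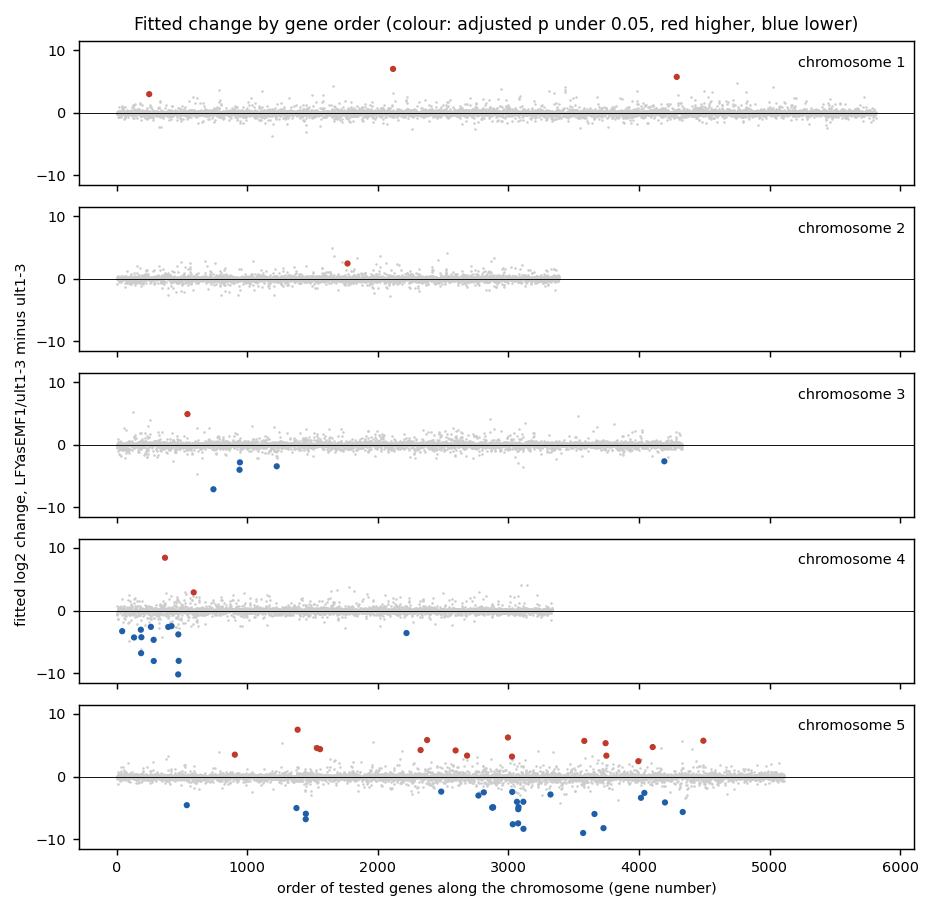
Fitted change between the double mutant and ult1-3 (vertical axis, log2) for each tested gene in its order along chromosomes 1 to 5 (horizontal axis, gene number). Genes that passed the limma test are red where higher and blue where lower. They gather on the first 589 genes of chromosome 4 and on chromosome 5.

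The same transgene was also measured without the ult1-3 allele, as LFYasEMF1 against WT replicate 1 on slide 1, so that the 2 differences share no array. Of the 23 genes that rose in the double mutant, 18 were at least 2-fold higher in LFYasEMF1 at both ages, against 2.97% of 21886 genes with values. Of 44 decreases with values 38 were at least 2-fold lower there, against 2.30%. The median change of the increases was 4.54 with the ult1-3 allele and 4.19 without it, and that of the decreases −4.43 and −3.94. The change of SWEET10 was 5.69 with the allele and 5.42 without it, that of PP2-A8 −7.48 and −6.67 and that of ESM1 −3.46 and −2.34. The other 3 increases with a symbol were smaller without the allele, with AACT1 at 5.71 and 1.92, AGL98 at 4.16 and 1.2 and CYP71A12 at 2.56 and 0.10. Across all genes the 2 differences had a Pearson correlation of 0.37 and a Spearman correlation of 0.08, given as a description.

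For the floral organ identity genes, the fitted difference was lower with the ult1-3 allele than without it in 14 of the 17 members with values on all arrays. Their median difference was 2.11 in the double mutant against ult1-3 and 4.11 in LFYasEMF1 against WT replicate 1. These values include signals at background. With dim signals at the floor, the difference was lower with the allele in 13 of the 15 members above background on at least 1 array of the double mutant or ult1-3, and the medians were 1.71 and 4.14. How many of all genes had a lower difference with the allele was not counted, so these counts have no background. PI, measured above background in both mutants and in ult1-3, differed by 2.47 and 5.36. AP3 differed by at least 2.81 and at least 7.00 and STK by at least 1.60 and at least 6.06 on the log2 scale, so the gap between their differences has no exact size. None of these members passed the test of the difference itself (limma on 10 arrays with genotype, age and slide, lowest adjusted p = 0.21). Of the 17, 11 had an unadjusted p under 0.05 in that test, against 2038 of all 22355 genes. Among the 11 was UFO, which went the other way (1.37 ± 0.33). AGL79, also among the 11, lay at background on all 4 arrays of the double mutant and ult1-3. SEP4 (0.67 and 0.62) and AP2 (0.01 and 0.11) had nearly the same difference in both. All differences with the allele come from slides 2 and 3 and all those without it from slide 1. The WT arrays of these slides differed more for some members than for others. FUL was at −7.96 and −6.04 in WT replicate 1 and at −5.18 and −3.95 in WT replicate 2. LFYasEMF1 had FUL at −5.44 and −1.05, against −4.06 and −2.44 in the double mutant. PI was at −4.84 and −3.37 in WT replicate 1 and at −4.11 and −3.13 in WT replicate 2. Of 13 members at least 2-fold higher in LFYasEMF1 at both ages, 10 were so in the double mutant as well, and SHP1, AGL6 and AGL79 were not. With the floor these counts were 12 and 8, CAL and STK being 2-fold higher in LFYasEMF1 only, as were SHP1 and AGL6. AG is left out of these counts because the probe used here has no value on 1 array of slide 1. Its other probe gave 4.94 with the allele and 5.94 without it, as measured. The first value includes ult1-3 signals at background (−8.78 and −7.99), below the floors of those arrays (−6.73 and −7.16). With dim signals at the floor it would be smaller. LFYasEMF1 and WT replicate 1 were well above background on both arrays for this probe, so the 2 values are not alike.

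**Figure D4:**
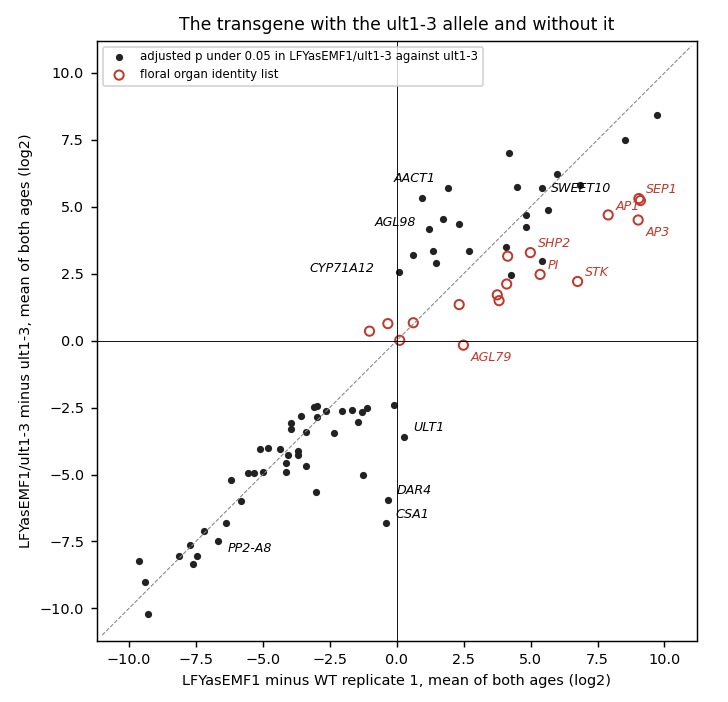
Mean difference over both ages between seedlings with and without the transgene, in the presence of the ult1-3 allele (vertical axis, double mutant minus ult1-3) and in its absence (horizontal axis, LFYasEMF1 minus WT replicate 1), both in log2. Black points are the genes that passed in the double mutant against ult1-3 and red rings the floral organ identity genes, and the dashed line marks equal differences. Signals are as measured, also at background. Most floral genes lie below the line, while CSA1, DAR4 and ULT1 lie near 0 on the horizontal axis.

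Across all genes, 39 passed the test of that difference, 0.174% of 22355 genes, 22 with a positive and 17 with a negative difference (2038 at an unadjusted p under 0.05). In 28 of the 39 the double mutant stayed within 2-fold of ult1-3 on average and LFYasEMF1 differed from WT replicate 1. In 3 it was the double mutant that differed. CSA1 and DAR4 were at −6.81 and −5.94 with the allele and −0.39 and −0.32 without it, and AT5G52620, chosen after its values were seen, was at 5.33 and 0.95. The count was 0 without either ult1-3 array, 7 and 6 without the double mutant at 7 or 15 days, 6 without either 7-day array of slide 1, 10 without either 15-day array of slide 1 and 20 without either WT replicate 2 array.

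Other pathways were described by gene lists, of which none held a gene that passed, apart from ULT1 itself among the 24 Polycomb and trithorax genes (18 of 24 lower, against 48.7% of all genes, with a median of −0.22 over both ages, −0.52 at 7 days and 0.04 at 15 days). Enzymes and regulators of aliphatic glucosinolates, defence compounds of the cabbage family, were lower in 14 of 15 cases, with a median of −0.99. MYB28, the main regulator of the pathway, was at −4.04 and −2.19 in the double mutant against −1.67 and −0.89 (−1.84 ± 0.37, adjusted p = 0.313 by limma). MAM1, which elongates the methionine chain, was at −2.58 and 2.01 against 0.90 and 3.02 (−2.25 ± 0.62, adjusted p = 0.515). MYB28, MAM1 and CYP79F2 were at least 2-fold lower at both ages, and the whole list differed more at 7 days (median −0.89) than at 15 days (−0.50). In LFYasEMF1 against WT replicate 1 the list had a median of −0.53.

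**Figure D5:**
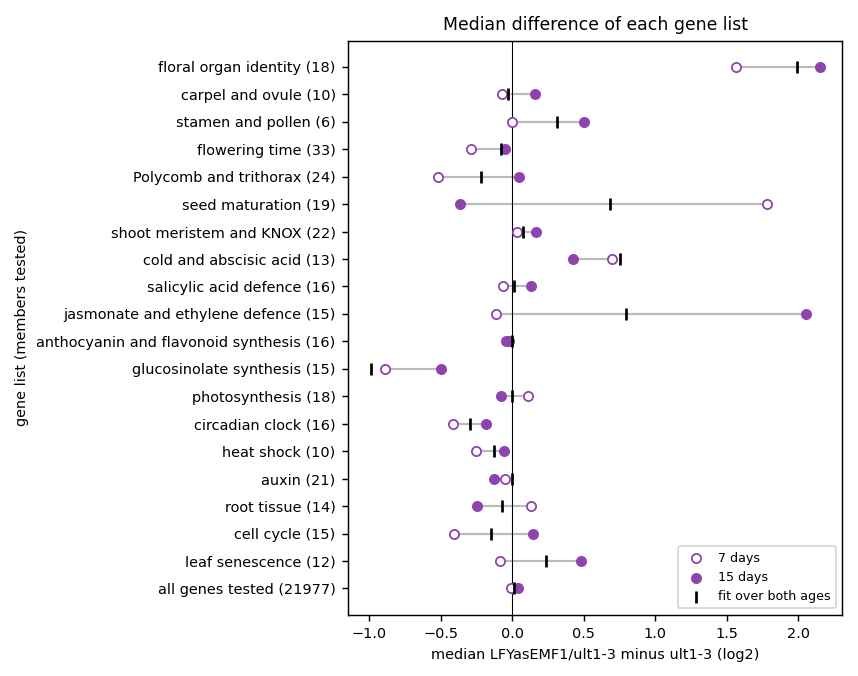
Median difference between the double mutant and ult1-3 for each gene list (log2) at 7 days (open), at 15 days (filled) and in the fit over both ages (tick), with the number of members tested in brackets. The floral organ identity list lies at 1.56 and 2.15, with signals as measured, the seed maturation list at 1.78 at 7 days and −0.36 at 15 days, and all genes at −0.01 and 0.04.

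Genes of seed maturation were higher in the double mutant at 7 days and not at 15 days, with medians of 1.78 and −0.36 over 19 members. OLEO1, an oil body protein gene, was at −2.45 at 7 days and −9.29 at 15 days in the double mutant and at −8.84 and −7.23 in ult1-3. OLEO2 was at −1.95 and −6.86 against −8.62 and −5.75. For both genes the 7-day array of the double mutant stood apart from the other 3 arrays. Jasmonate and ethylene defence genes showed the opposite timing, with medians of −0.12 at 7 and 2.05 at 15 days over 15 members. LOX2, an enzyme of jasmonate synthesis, was at −0.59 and 1.61 against −1.23 and −0.60 (1.42 ± 0.41, adjusted p = 0.549 by limma), and the defensin gene PDF1.2 was at −5.08 and −1.22 against −5.50 and −5.06. WT replicate 2 had PDF1.2 at −4.94 and −1.61, so at 15 days ult1-3 was the array that stood apart. PR1, a marker of salicylic acid responses, and SAG13, a marker of senescence, were high on the same double mutant array at 15 days. PR1 was at −2.46 there and between −8.78 and −7.90 on the other 3 arrays, and SAG13 was at 2.23 against −8.62 to −7.44, with WT replicate 2 at −2.11 at 15 days. Whether the state of the seedlings behind these arrays bears on their floral values was not tested.

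Genes that control flowering time varied around a median of −0.08 over 33 members. AGL71, a MADS-box gene related to SOC1, was at −6.44 and −6.06 in the double mutant and at background in ult1-3 (2.20 ± 0.46, adjusted p = 0.332 by limma), the only member at least 2-fold higher at both ages. FT, the mobile flowering signal, was at −3.92 in the double mutant at 15 days and not well above background on the other 3 arrays, while WT replicate 2 had it at −4.83 at 15 days. FRI, an activator of the repressor FLC, was lower, at −4.02 and −4.33 against −3.13 and −2.45 (−1.38 ± 0.30, adjusted p = 0.359). Of the 16 circadian clock genes 13 were lower, against 48.7% of all genes (median −0.29). Only 1 of them was at least 2-fold lower at both ages, and none passed. FKF1, a blue-light receptor of the photoperiod pathway, was at −2.87 and −3.09 against −1.47 and −1.42 (−1.54 ± 0.20, adjusted p = 0.129 by limma). FKF1 was lower in the double mutant at both ages, without overlap.

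Genes that act later in flowers were little different. Of 15 stamen and pollen genes 6 passed the filter, with a median of 0.31, and of 14 carpel and ovule genes 10 did, with a median of −0.03. None of them was 2-fold higher at both ages. AMS, DYT1, MS1 and MS2, which act in the anther, and CRC and INO, which act in carpel and ovule, were not well above background on any of the 6 arrays or had an outlier spot. The shoot meristem and KNOX list had a median of 0.07 over 22 members, the cell cycle list −0.15 over 15, the auxin list 0.00 over 21, the heat shock list −0.13 over 10 and the leaf senescence list 0.24 over 12. Anthocyanin and flavonoid synthesis had a median of 0.00 over 16 members, salicylic acid defence 0.01 over 16 and cold and abscisic acid responses 0.75 over 13.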

How the data were processed

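RNA of whole seedlings was labelled with 1 dye and hybridised to 10 Agilent arrays, and scans were quantified by Agilent Feature Extraction (version 10.7.1.1, per the submitters' processing notes). The authors deposited a processed signal for each spot, a linear intensity from which the software had subtracted background within the array and which was not normalized between arrays, per the file headers. The value table deposited for the series is also an intensity, with column medians from 966.71 to 970.13 and the same lowest and highest value in every column. Its scale and normalization are not given in the sources used here, and it served as an alternative only.

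Each processed signal was scaled to the 75th percentile of its array's non-control spots before the log2 was taken. Outlier spots were left out. Accessions in the array files were matched to RefSeq names of TAIR10.1, which gave a locus to 34358 of 43603 probes. A gene was represented by its brightest probe, and a probe was tested if it was well above background on at least 1 array of the fit. If neither array of a genotype had a gene well above background, its fold is a lower bound ("at least"), computed with the higher of its own signal and the array's lowest signal well above background; log2 changes are as fitted. The tests used limma (version 3.58.1, R 4.3.3, Benjamini-Hochberg adjustment, threshold 0.05), and the scripts were tested on simulated data. The difference between the 2 backgrounds was fitted to 10 arrays, with 3 residual degrees of freedom.

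The samples, the 19 gene lists and the tests were chosen with earlier results of these data known. Of 347 list entries 8 were dropped because symbol and locus did not match, and 313 genes of the lists were tested. The text names ULT1, EMF1 and LFY, the floral list, changed members of other lists, the 10 largest named increases and decreases (4 increases existed) and the 5 largest named differences per direction; other genes named were chosen after their values were seen. Alternatives were other arrays in the fit, normalizations (quantile, and normexp on median signals), filters, probe choices, variance models and leaving out each array. No sequence is printed, since the files used here hold none.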

Additional observations from a re-analysis of the deposited data

Results flagged for a closer look

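A difference between the 2 genetic backgrounds was called for 5 genes with a symbol (limma, 10 arrays, genotype, age and slide). It is given on the log2 scale as double mutant minus ult1-3, less LFYasEMF1 minus WT replicate 1. These are differences between lines, and whether features of the lines other than the transgene bear on them was not tested. CSA1 differed by −6.42 ± 0.56 (adjusted p = 0.0286) and its neighbour DAR4 by −5.62 ± 0.46 (adjusted p = 0.0248). Both were at background on at least 1 double mutant array and well above it in ult1-3, LFYasEMF1 and WT replicate 1, on all 6 of those arrays. LOH1 differed by 6.54, from −0.55 in the double mutant against ult1-3 and −7.09 in LFYasEMF1 against WT replicate 1, but its other probe gave −1.53 and 0.67, so its probes disagree. TIF3C2 differed by −4.98, with LFYasEMF1 at −2.22 and −2.39 and all arrays of ult1-3 and WT replicate 1 not well above background. RLP38 differed by 3.5, with the double mutant 1.68 above ult1-3 and LFYasEMF1 1.82 below WT replicate 1 on the log2 scale. RLP38 was well above background on 1 double mutant array and on both WT replicate 1 arrays. It was not so on any ult1-3 or LFYasEMF1 array, so these values include signals at background and have no exact size. Its ult1-3 signals (−8.43 and −8.42) lay below the floors of those arrays (−6.73 and −7.16). In leave-one-out fits and other alternatives, the call ended in 7 of 15 for CSA1, 11 of 15 for DAR4 and LOH1 and 13 of 14 for TIF3C2 and RLP38.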

How the results depend on the processing

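Among the counts and named genes, no called direction reversed under the alternatives run. Single other probes did give the opposite sign: AT1G63860 had −0.67 in place of 5.72, AT1G24230 had −0.90 in place of 7.00 with the other probe at background, and LOH1 had −1.53 with the allele and 0.67 without it. The count of genes changed between the double mutant and ult1-3, 68 in the fit reported, was 0 with only the 4 arrays of these genotypes (limma; 1637 at an unadjusted p under 0.05), 26 without an age term and 13 without the genes of the chromosome stretches, an alternative chosen after seeing the data. Leaving out 1 array gave 0 to 520. The other 11 alternatives kept it between 62 and 100 (100 with a filter of 3 of 6 arrays, and 97, 60 shared, with 10 arrays and slide). No floral gene passed in the fit reported. The number that passed was 2 with 10 arrays, 3 with slide as a further term, and 2 each with quantile normalization, the authors' value table, normexp, the filter of 3 of 6 arrays and the intensity trend, and 0 to 9 when 1 array was left out. These were SEP1 and SEP2 in most cases (6 and 9 of 19 alternatives). The floral median of 1.99 was 1.23 with normexp and 1.62 to 2.42 when 1 array was left out. The 39 differences between backgrounds became 0 to 20 when 1 array was left out and 31 to 46 otherwise. The difference between ages gave 0 calls in all 4 alternatives. No paired analysis was possible because the double mutant and ult1-3 have 1 array per age and so share fewer than 2 replicate numbers at an age; age, the same split as slide, was the block instead. Signal over background limits the values of dim genes: SEP2, AP1, AP3, STK, CAL and AGL6 have only bounds.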
